A study of Mus musculus with 15 samples.

Results

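Suox, Slc13a1, Papss1, Papss2, Cdo1 and Ethe1 encode proteins that take up, activate or oxidise inorganic sulfur. They were followed here across the jejunal and ileal epithelium of mice with altered Gata4. These 6 genes, of 19938 with a symbol on the array, were chosen by function together with measured values: Suox and Slc13a1 were selected on their high ileal level in wild-type mice and on their lower level in the ileum of knockin mice. Both of those comparisons are therefore given for the 6 genes as a description without a test. RNA of isolated small intestinal epithelial cells was hybridised to 15 Affymetrix Mouse Gene 1.0 arrays, n = 3 in each of 5 groups of adult mice. The groups were ileum with Gata4 conditionally knocked in (cKI), ileum labelled only as adult control, jejunum labelled as conditionally lacking Gata4 (cKO), and jejunum and ileum of wild-type CD1 mice. Gata4 is a transcription factor that the jejunum makes and the distal ileum largely lacks, and the question posed by the groups is what its gain in the ileum or its loss in the jejunum does to regional gene expression. The promoter that drives recombination, the strain of the knockin, knockout and control mice, and how many animals stand behind an array are not given in the sources used here.

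Values are deposited log2 expression values. A gene was tested when its highest group mean exceeded 4.91, the median of the whole table, which 11784 genes and all 6 of the sulfur genes did. Differences are the first group minus the second, ± the standard error from limma, and a gene is called when its adjusted p from limma (Benjamini-Hochberg over all 11784 genes) is under 0.05. Means of a group are given ± SD (n = 3). Since nothing states that the arrays of a group came from separate animals, the spread behind each p-value is that among these samples and may be technical. The labels name no jejunal control from the knockout colony, so strain, colony and genotype cannot be told apart between the jejunum labelled cKO and the wild-type jejunum.

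Gata4 itself had 8.02, 8.43 and 8.17 in cKI ileum, against 6.71, 7.22 and 6.53 in control ileum (1.38 ± 0.185, adjusted p = 0.00453, limma). It was at 9.72, 9.88 and 9.93 in the jejunum labelled cKO, at 9.68, 9.45 and 9.47 in the wild-type jejunum and at 5.99, 5.43 and 5.39 in the wild-type ileum. The arrays labelled cKO thus showed no loss of Gata4 signal against the wild-type jejunum (0.31 ± 0.185, adjusted p = 0.322, limma). Which part of the gene was deleted and where the probes lie are not given in the sources used here, so this level does not check the label. The defining markers of epithelium were all above 4.91 (10 of 10), and the log2 of their summed signal spanned 14.5 to 14.9 over all arrays. Of the 10, 3 were called higher in the jejunum labelled cKO than in the wild-type jejunum, 3 lower in the wild-type jejunum than ileum, and 3 higher in the control than in the wild-type ileum. The 6 ileal enterocyte markers spanned a sum of 12.1 to 12.6 in the cKI ileum, 13.5 to 13.7 in the control ileum, 13.6 to 14.2 in the jejunum labelled cKO, 10.9 to 11.6 in the wild-type jejunum, and 13.7 to 14.2 in the wild-type ileum. Of these 6, 4 were called lower in the wild-type jejunum than ileum (21.3% of all tested genes called). In the jejunum labelled cKO 5 were higher (12.8%), and in the cKI ileum 2 were lower (0.764%). Between control and wild-type ileum 1 was higher and 2 lower (27.9%). The 6 jejunal enterocyte markers spanned a sum of 9.90 to 12.2 in the cKI ileum, 9.72 to 10.04 in the control ileum, 12.1 to 13.2 in the jejunum labelled cKO, 14.6 to 14.8 in the wild-type jejunum, and 8.05 to 9.74 in the wild-type ileum. All 6 were called higher in the wild-type jejunum than ileum, and 4 lower in the jejunum labelled cKO. In the cKI ileum 1 was higher, as was 1 between control and wild-type ileum. By these sums, in which the most abundant markers weigh most, the jejunum labelled cKO reached the ileal groups in ileal markers. In jejunal markers it lay between the wild-type regions by the same measure. It had more Gata4 signal than any ileal array.

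Sulfate reaches the enterocyte from the lumen through sodium-coupled and anion-exchange carriers. Papss1 and Papss2 join it to ATP to make PAPS, the sulfate donor with which sulfotransferases modify mucins, proteoglycans, steroids, bile acids and drugs. A second supply comes from inside the cell: Cdo1 oxidises cysteine, Ethe1 oxidises the persulfide formed when mitochondria clear hydrogen sulfide, and the sulfite from both is turned into sulfate by Suox, a molybdenum enzyme of the mitochondrial intermembrane space. Hydrogen sulfide is made in the gut by bacteria as well as by the host.

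The 250 bases upstream of the annotated starts are shown for Suox and Papss2, the members with the largest wild-type differences toward ileum and toward jejunum. They are RefSeq sequences of build GRCm38.p6, read 5′ to 3′ on the gene's strand, and capitals mark matches to a GATA motif on either strand, namely AGATAA or the variant AGATAG, as well as the forms TGATAA and likewise TGATAG. The Suox window is chr10:128673919-128674168 on the minus strand. The Papss2 windows are chr19:32595465-32595714 and chr19:32619755-32620004, both on the plus strand.
Suox: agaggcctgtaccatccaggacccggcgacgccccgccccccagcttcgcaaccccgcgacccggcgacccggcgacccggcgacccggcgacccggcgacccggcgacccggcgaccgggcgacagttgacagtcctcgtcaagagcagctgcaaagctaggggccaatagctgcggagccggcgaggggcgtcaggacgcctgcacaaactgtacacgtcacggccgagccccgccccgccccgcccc
Papss2, start 1: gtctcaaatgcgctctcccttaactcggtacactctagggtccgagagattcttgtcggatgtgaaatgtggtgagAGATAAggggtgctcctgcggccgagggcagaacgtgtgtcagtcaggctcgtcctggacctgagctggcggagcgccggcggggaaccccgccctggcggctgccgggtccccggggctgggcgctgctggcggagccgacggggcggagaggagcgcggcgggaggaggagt
Papss2, start 2: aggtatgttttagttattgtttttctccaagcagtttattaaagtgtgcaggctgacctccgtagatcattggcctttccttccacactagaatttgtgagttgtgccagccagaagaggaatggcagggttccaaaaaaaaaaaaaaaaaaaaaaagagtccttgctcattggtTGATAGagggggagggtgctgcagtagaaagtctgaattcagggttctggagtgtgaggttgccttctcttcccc
The Suox window held no match, each Papss2 window held 1, at -174 and -75 from the start, and 26.5% of the 32851 windows of all genes held at least 1. Of the other members with a sequence, Ethe1 had no match at either of its starts, and Papss1 had none at its first start and 2 at its second. The Suox window was 74.4% G and C, against a median of 52.4% over all windows, and carried 7 copies of the unit cgacccgg, a feature chosen after the sequence was seen. The Suox window, from which the unit was taken, was the only 1 of the 32851 windows that held it more than once. That count is therefore no independent measure of rarity. A match is a run of letters and not a shown binding site.

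Suox, sulfite oxidase (transcript cluster 10373515), separated the wild-type jejunum from the other 4 groups. It was at 8.62, 9.12 and 8.66 in the cKI ileum, and at 10.66, 10.60 and 10.61 in the control ileum. It was at 10.67, 10.13 and 10.36 in the jejunum labelled cKO, against 5.96, 5.89 and 5.78 in the wild-type jejunum, and the wild-type ileum had 10.66, 10.33 and 10.43. Every cKI array lay below every control array and above every wild-type jejunal array. The difference was -1.82 ± 0.151 between cKI and control ileum (3.53-fold) and -4.59 ± 0.151 between wild-type jejunum and ileum (24.1-fold). In such bulk samples fewer cells of a type and less RNA per cell cannot be told apart.

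Slc13a1 (cluster 10543411), the sodium-coupled sulfate carrier of the apical membrane, was likewise lowest in the wild-type jejunum and next lowest in the cKI ileum, with a smaller span. It was at 9.59, 9.54 and 9.92 in the cKI ileum and at 11.70, 11.60 and 11.33 in the control ileum. It was at 11.51, 11.09 and 11.30 in the jejunum labelled cKO, against 9.16, 9.68 and 8.36 in the wild-type jejunum, and at 11.60, 11.03 and 11.16 in the wild-type ileum. The cKI arrays did not overlap the control arrays, but they did overlap the wild-type jejunal arrays, which had the widest spread of any group for this gene (SD 0.67). The difference was -1.86 ± 0.257 between cKI and control ileum (3.63-fold) and -2.20 ± 0.257 between wild-type jejunum and ileum (4.59-fold).

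**Figure D1:**
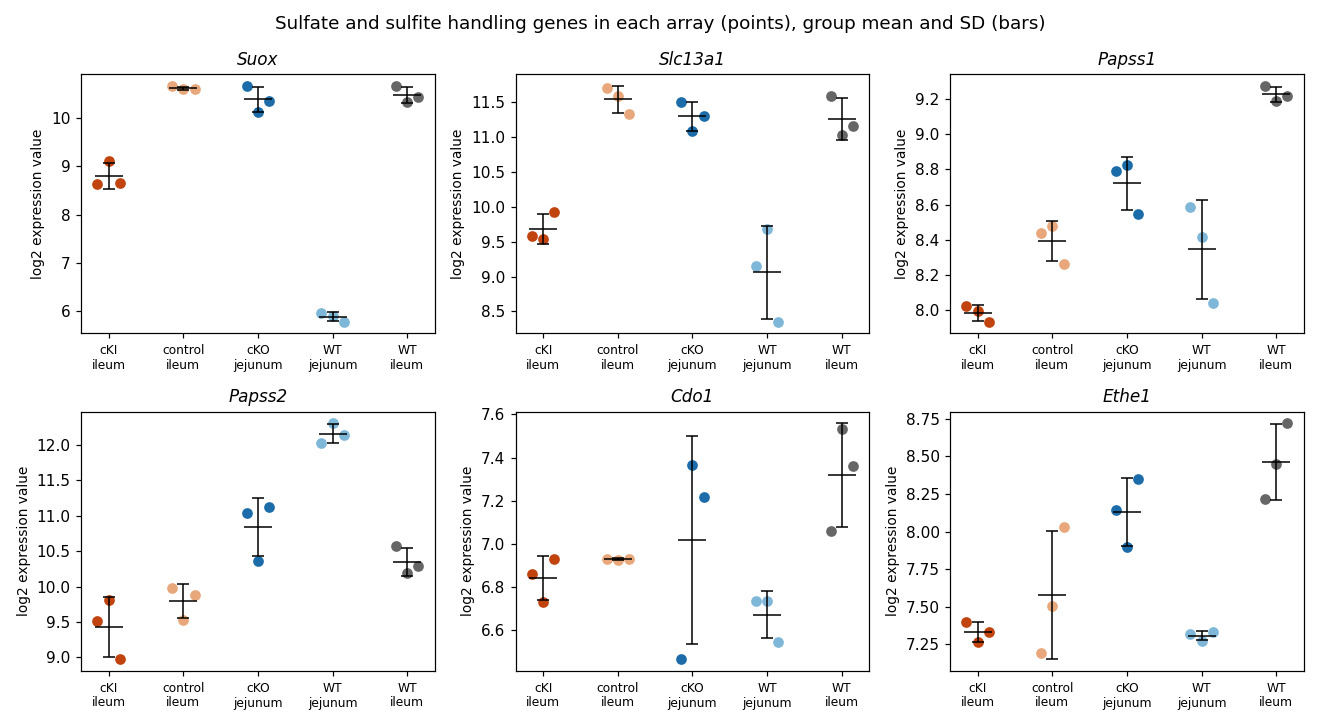
Log2 expression value (y axis) of the 6 sulfur genes in the 5 groups (x axis); points are arrays, the long bar is the group mean and the whiskers are the SD (n = 3). Suox and Slc13a1 are lowest in the wild-type jejunum and intermediate in the cKI ileum, whereas Papss2 is highest in the wild-type jejunum.

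The comparison of the jejunum labelled cKO with the wild-type jejunum was not used to choose the genes, although it shares the wild-type jejunal arrays with the regional comparison that was. Suox rose by 4.51 ± 0.151 (adjusted p = 1e-10, limma), a 22.7-fold difference, with 10.39 ± 0.27 in the jejunum labelled cKO and 5.88 ± 0.09 in the wild-type jejunum. Slc13a1 rose by 2.23 ± 0.257 (adjusted p = 3.94e-05, limma), or 4.71-fold. Ethe1, the mitochondrial persulfide dioxygenase, rose by 0.82 ± 0.182 (adjusted p = 0.00727, limma), or 1.77-fold. Papss2 fell, with a difference of -1.32 ± 0.22 (adjusted p = 0.000954, limma), or 2.497-fold. In each of these 4 genes no array of one group reached the range of the other. Thus 4 of the 6 genes were called, 3 higher and 1 lower, where 12.8% of all tested genes were called. Suox and Slc13a1 were chosen in part on their low level in these wild-type jejunal arrays. Their p-values here are therefore no independent test, and nothing is read from this share. Of the others, Ethe1 was called higher and Papss2 lower, and Papss1 and Cdo1 were not called. The median difference of the 6 was 0.60 and that of all tested genes was -0.03. In all 14 alternative settings tried the calls of Suox, Slc13a1, Ethe1 and Papss2 held. The settings reuse arrays on which Suox and Slc13a1 were chosen, so this adds no support for either gene.

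Set beside the ileum, the jejunum labelled cKO overlapped the wild-type ileal arrays in 5 of the 6 genes. The share of all tested genes that overlapped was not counted, so the 5 are a description. Suox averaged 10.39 ± 0.27 in the jejunum labelled cKO and 10.47 ± 0.17 in the wild-type ileum. Slc13a1 averaged 11.30 ± 0.21 and 11.26 ± 0.30 in the same groups. Papss1 was the exception, with all 3 arrays of the jejunum labelled cKO (8.55 to 8.83) below all wild-type ileal arrays (9.19 to 9.27). For Suox and Slc13a1 the control ileum, the wild-type ileum and the jejunum labelled cKO were neighbours whose arrays overlapped. Both ileal groups were used in choosing these genes, so this too is a description.

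Papss2 and Papss1 are paralogs that catalyse the same reactions, and their levels were ordered differently over the groups. Papss2 (cluster 10462507) was at 9.51, 9.81 and 8.97 in the cKI ileum and at 9.98, 9.53 and 9.88 in the control ileum. It was at 11.04, 10.36 and 11.13 in the jejunum labelled cKO, against 12.03, 12.31 and 12.15 in the wild-type jejunum, and at 10.58, 10.19 and 10.29 in the wild-type ileum. It was the only one of the 6 genes higher in the wild-type jejunum than in the wild-type ileum (1.81 ± 0.22, 3.51-fold). Between cKI and control ileum its difference was -0.36 ± 0.22, away from the jejunal level, and the arrays overlapped.

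Papss1 (cluster 10496110) was at 8.03, 7.998 and 7.94 in the cKI ileum and at 8.44, 8.48 and 8.27 in the control ileum. It was at 8.79, 8.83 and 8.55 in the jejunum labelled cKO, against 8.59, 8.42 and 8.04 in the wild-type jejunum, and at 9.27, 9.19 and 9.22 in the wild-type ileum. The cKI ileum lay below the control ileum without overlap (-0.41 ± 0.129), and the wild-type jejunum below the wild-type ileum without overlap (-0.88 ± 0.129). Between the jejunum labelled cKO and the wild-type jejunum the difference was 0.37 ± 0.129 (adjusted p = 0.0725, limma). It was called without cKO jejunum replicate 3 (0.46, adjusted p = 0.0431, limma), without wild-type jejunum replicate 1 (0.49, adjusted p = 0.0308, limma) and after quantile normalization (0.43, adjusted p = 0.0387, limma), within a range of 0.0308 to 0.263 over the alternatives.

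Ethe1 and Cdo1, which lie upstream of Suox in the making of sulfite, were both lower in the wild-type jejunum than in the wild-type ileum. Ethe1 (cluster 10550956) was at 7.40, 7.27 and 7.34 in the cKI ileum and at 7.19, 7.51 and 8.03 in the control ileum, which overlapped. It was at 8.14, 7.90 and 8.35 in the jejunum labelled cKO, against 7.32, 7.27 and 7.33 in the wild-type jejunum, and at 8.22, 8.45 and 8.72 in the wild-type ileum. The control ileal arrays thus reached from the wild-type jejunal level to just below the lowest wild-type ileal array. The difference was -1.15 ± 0.182 between wild-type jejunum and ileum, and -0.24 ± 0.182 between cKI and control ileum.

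Cdo1 (cluster 10458828), cysteine dioxygenase, differed little between cKI and control ileum. It ranged from 6.73 to 6.93 in the cKI ileum and from 6.927 to 6.932 in the control ileum, and the groups differed by -0.09 ± 0.185. In the wild-type jejunum it ranged from 6.55 to 6.74 and in the wild-type ileum from 7.06 to 7.53, without overlap (-0.65 ± 0.185). The jejunum labelled cKO held 6.47, 7.36 and 7.22, so that its arrays reached below those of the wild-type jejunum and into those of the wild-type ileum. Its difference from the wild-type jejunum was 0.34 ± 0.185 (adjusted p = 0.268, limma). Without cKO jejunum replicate 1, the low array, the difference was 0.62 and was called (adjusted p = 0.00697, limma), as it was with array weights (0.48, adjusted p = 0.0382, limma); the range over the alternatives was 0.00697 to 0.656.

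In counts over the 6 genes, the arrays of the cKI ileum lay below those of the control ileum in 3 and overlapped them in 3. The share of all tested genes without overlap was not counted. The share called there, 0.764%, is another measure and no background for these counts. The median difference of the 6 was -0.39, that of all tested genes 0.03. The wild-type jejunum lay below the wild-type ileum in 5 and above it in 1, again with no count of overlap over all genes. The share called there was 21.3%, and the medians were -1.02 for the 6 and 0.00378 for all. Since Suox and Slc13a1 were chosen on these comparisons, nothing is read from these counts and shares.

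**Figure D2:**
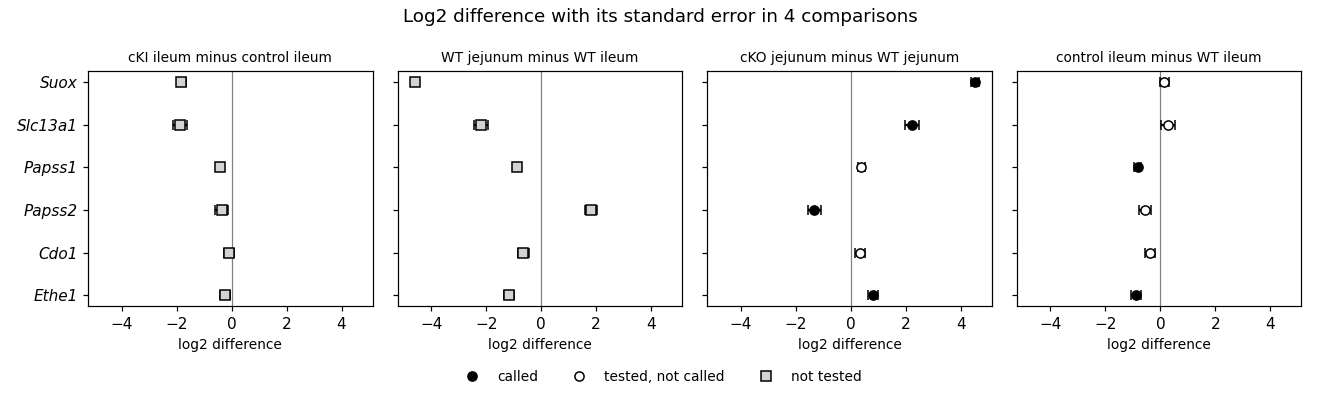
Log2 difference (x axis) of the 6 genes (y axis) in the 4 comparisons; whiskers are the standard error from limma, filled circles are called, open circles tested and not called, and grey squares not tested. The jejunum labelled cKO minus the wild-type jejunum has filled circles for Suox, Slc13a1, Papss2 and Ethe1, and the control minus the wild-type ileum has them for Papss1 and Ethe1.

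The control ileum against the wild-type ileum compares 2 groups without a Gata4 change in their labels, and shares its arrays with the 2 comparisons used to choose the genes. Strain and colony cannot be told apart in it. Suox differed by 0.15 ± 0.151 (adjusted p = 0.499, limma) and Slc13a1 by 0.28 ± 0.257 (adjusted p = 0.451, limma), with overlapping arrays. Both genes were chosen in part on their higher level in each of these groups, so this likeness is no independent result. Papss1 fell, with 8.40 ± 0.11 in the control ileum and 9.23 ± 0.04 in the wild-type ileum (-0.83 ± 0.129, adjusted p = 0.000331, limma). Ethe1 fell as well, with 7.58 ± 0.42 in the control ileum and 8.46 ± 0.25 in the wild-type ileum (-0.88 ± 0.182, adjusted p = 0.00262, limma). Papss2 differed by -0.56 ± 0.22 (adjusted p = 0.0717, limma, and 0.0319 in a fit of these 6 arrays alone) and Cdo1 by -0.39 ± 0.185 (adjusted p = 0.133, limma). In Papss1, Papss2, Ethe1 and Cdo1 every control array lay below every wild-type array, though the share of all tested genes without overlap was not counted. So 2 of the 6 genes were called, both lower, where 27.9% of all tested genes were called. The median of the 6 was -0.47 and that of all tested genes 0.08. With quantile normalization or with array weights 4 were called, Papss2 (adjusted p = 0.041 and 0.0333, limma) and Cdo1 (adjusted p = 0.032 and 0.0146, limma) besides. For Papss1 and Ethe1 these differences stand beside -0.88 and -1.15 between the wild-type jejunum and ileum. Gata4 was also higher in the control than in the wild-type ileum, by 1.22 ± 0.185 (adjusted p = 0.000284, limma).

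The genes whose values ran most like those of Suox over the 15 arrays, by Pearson's r and as a description, were Tmigd1 (0.989), Fabp6 (0.983), Sqor (0.982), Slc10a2 (0.978) and Lpcat4 (0.970). The 15 points share 5 groups of 3 arrays each. Fabp6 and Slc10a2 carry bile acids in the ileal enterocyte, and Sqor is the mitochondrial enzyme that oxidises hydrogen sulfide. For Slc13a1 they were Ttyh3 (0.960), Prss23 (0.945), Slc25a48 (0.940), Mfhas1 (0.935) and Neu1 (0.929). Slc13a1 and Suox correlated by 0.907 with each other, Suox and Papss2 by -0.645, and Papss1 and Papss2 by 0.143.

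**Figure D3:**
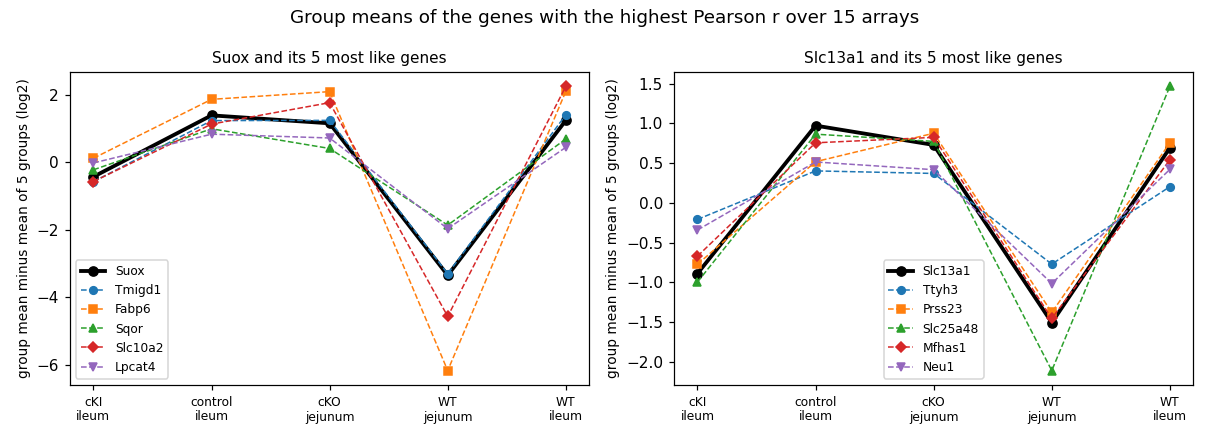
Group means, each minus the gene's mean over the 5 groups (log2, y axis), in the 5 groups (x axis) for Suox (left) and Slc13a1 (right), in solid black, and the 5 genes with the highest Pearson r over the 15 arrays, dashed. All 12 curves have their lowest point in the wild-type jejunum and lie in the cKI ileum below the control ileum.

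Sulfide oxidation is the route that leads into Suox through Ethe1, and Sqor takes its first step. Sqor was at 7.10, 6.96 and 6.96 in the cKI ileum, against 8.23, 8.13 and 8.30 in the control ileum (-1.22 ± 0.122, adjusted p = 0.000197, limma). It was at 7.60, 7.45 and 7.87 in the jejunum labelled cKO, against 5.30, 5.54 and 5.27 in the wild-type jejunum (2.27 ± 0.122, adjusted p = 1.51e-08, limma). The wild-type ileum had 7.99, 7.77 and 8.005, and the wild-type jejunum was lower (difference -2.55 ± 0.122, adjusted p = 2.48e-09, limma). Sqor fell in the cKI ileum and rose in the jejunum labelled cKO, with no overlap of arrays in either comparison.

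Mpst, a mercaptopyruvate sulfurtransferase that makes persulfide from a cysteine product, averaged 7.39 ± 0.15 in the jejunum labelled cKO and 6.53 ± 0.04 in the wild-type jejunum (0.86 ± 0.161, adjusted p = 0.00226, limma). It was lower in the wild-type jejunum than in the wild-type ileum (difference -1.68 ± 0.161, adjusted p = 2.8e-06, limma). In the cKI ileum it was at 6.97 ± 0.07 against 7.77 ± 0.26 in the control ileum (-0.80 ± 0.161, adjusted p = 0.0373, limma). That last call was lost with the replicate number as a block (adjusted p = 0.0579, limma), when only these 6 arrays were fitted (0.0948) and without the filter (0.0511). It was also lost without cKI ileum replicates 1 (0.14), 2 (0.0623) or 3 (0.106) and without control ileum replicates 2 (0.12) or 3 (0.0617), all adjusted p from limma. Of the 11 tested genes of the sulfide and persulfide list, 2 were lower in the cKI ileum (0.764% of all genes called), namely Sqor and Mpst, and the same genes were the 2 higher in the jejunum labelled cKO (12.8% called). Between the wild-type regions 1 was higher in the jejunum and 4 lower (21.3% called). The 1 higher was Txn2 (0.40 ± 0.128, adjusted p = 0.0364, limma). That call was lost after quantile normalization (adjusted p = 0.106, limma), after median centring (0.0513), without the filter (0.0594), and without any 1 wild-type jejunal array or wild-type ileum replicates 1 or 2 (0.0575 to 0.123). The thioredoxins Txn1 and Txn2, which reduce disulfides and persulfides, were higher in the control than in the wild-type ileum, by 0.79 ± 0.0931 and 1.00 ± 0.128 (adjusted p = 4.45e-05 and 8.18e-05, limma).

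Suox needs the molybdenum cofactor, and most tested genes of that cofactor and of the other molybdenum enzymes ran the opposite way to Suox between the wild-type regions. Of 7 tested genes, 6 were higher in the wild-type jejunum than in the wild-type ileum and none lower, where 21.3% of all tested genes were called, with a median of 1.00 against 0.00378 for all tested genes. In the jejunum labelled cKO 5 of the 7 were lower than in the wild-type jejunum and none higher, where 12.8% of all tested genes were called, with a median of -0.68 against -0.03. Mtarc2, a mitochondrial amidoxime reductase, was at 8.88, 8.86 and 9.23 in the jejunum labelled cKO, against 10.42, 10.35 and 10.37 in the wild-type jejunum (-1.39 ± 0.165, adjusted p = 5.22e-05, limma). Mocs1, which catalyses the first step of cofactor synthesis, fell to 9.54 ± 0.15 in the jejunum labelled cKO, against 10.22 ± 0.23 in the wild-type jejunum (adjusted p = 0.00243, limma).

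Xdh, xanthine dehydrogenase, averaged 9.92 ± 0.53 in the jejunum labelled cKO and 10.998 ± 0.04 in the wild-type jejunum (-1.07 ± 0.25, adjusted p = 0.00976, limma, and 0.0511 without cKO jejunum replicate 2). Mocos, which sulfurates the cofactor of Xdh and aldehyde oxidases but not that of Suox, was higher in the wild-type jejunum than ileum by 1.00 ± 0.15 (adjusted p = 0.000185, limma). None of the 7 was called by limma between cKI and control ileum, where 1 had an unadjusted p under 0.05 and where Suox was lower in all 3 arrays. Between control and wild-type ileum 1 of the 7 was higher, Mocos (0.86 ± 0.15, adjusted p = 0.00075, limma), and 1 lower, Mocs1 (-1.003 ± 0.128, adjusted p = 8.23e-05, limma).

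**Figure D4:**
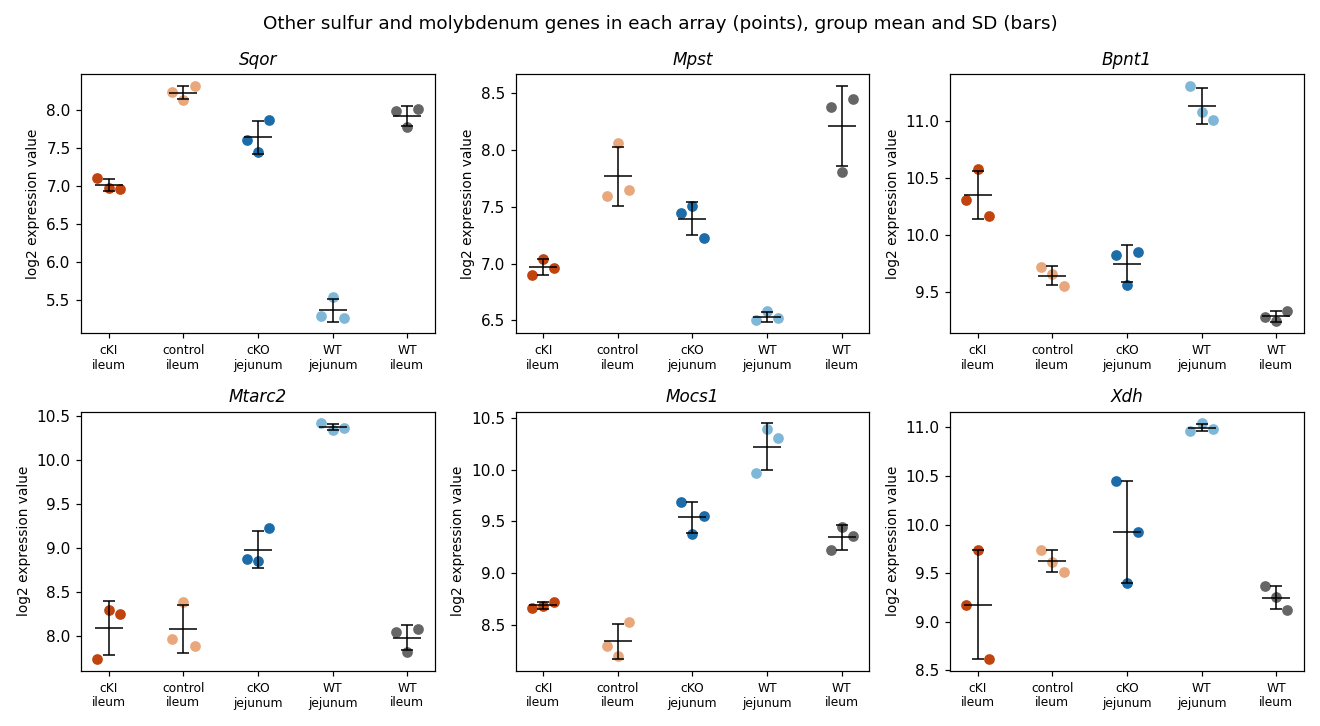
Log2 expression value (y axis) of 6 genes outside the 6 sulfate and sulfite genes, in the 5 groups (x axis); points are arrays, the long bar is the mean and the whiskers the SD (n = 3). Sqor and Mpst are lowest in the wild-type jejunum, whereas Bpnt1, Mtarc2, Mocs1 and Xdh are highest there.

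On the side of PAPS use, Bpnt1 followed the order of Papss2 between the wild-type regions. Bpnt1 removes phosphate from PAP, the product that sulfotransferases leave behind. It was at 9.83, 9.56 and 9.85 in the jejunum labelled cKO, against 11.30, 11.07 and 11.01 in the wild-type jejunum (-1.38 ± 0.123, adjusted p = 4.32e-06, limma). It was higher in the wild-type jejunum than in the wild-type ileum by 1.84 ± 0.123 (adjusted p = 8.29e-08, limma). In the cKI ileum it was at 10.30, 10.58 and 10.17, against 9.72, 9.65 and 9.55 in the control ileum (0.71 ± 0.123, adjusted p = 0.0172, limma). Unlike Papss2, Bpnt1 was thus higher in every cKI array than in every control array. That call was lost with the replicate block (adjusted p = 0.073, limma) and when only these 6 arrays were fitted (0.0966). It was also lost without cKI ileum replicates 1 (0.0701) or 2 (0.0505) and without control ileum replicates 2 (0.0516) or 3 (0.0611), all adjusted p from limma.

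Sult1b1, a sulfotransferase for phenols and thyroid hormone, averaged 9.25 ± 0.27 in the jejunum labelled cKO and 10.18 ± 0.06 in the wild-type jejunum (-0.93 ± 0.176, adjusted p = 0.00243, limma). It also differed between the control and the wild-type ileum, by 0.82 ± 0.176 (adjusted p = 0.0034, limma). Gal3st1, which makes sulfatide, was higher in the wild-type jejunum than in the wild-type ileum by 0.77 ± 0.164 (adjusted p = 0.00317, limma). Ndst2, which sulfates heparan chains, was higher in the control than in the wild-type ileum by 0.89 ± 0.111 (adjusted p = 7.06e-05, limma). Of the 15 tested genes that use PAPS or clear PAP, 1 was higher in the jejunum labelled cKO and 4 lower (33.3%, against 12.8% of all tested genes). In the wild-type jejunum 5 were higher and 3 lower than in the ileum (53.3% against 21.3%), and in the cKI ileum 1 was higher (6.67% against 0.764%). Ndst2 is among those counted between the regions (0.33, adjusted p = 0.0491, limma) and in the jejunum labelled cKO (-0.39, adjusted p = 0.033, limma). Its regional call was lost with the replicate block (adjusted p = 0.12, limma) and without wild-type jejunum replicates 1 or 2 or wild-type ileum replicates 1 or 2 (0.0747 to 0.213). The fit of only the 6 arrays compared (0.0879), median centring (0.0661) and no filter (0.084) lost it as well. Its call in the jejunum labelled cKO was lost without cKO jejunum replicates 1 or 2 or wild-type jejunum replicates 1 or 2 (adjusted p from 0.0801 to 0.135, limma). The replicate block (0.193), the fit of 6 arrays (0.117), median centring (0.0798) and no filter (0.0543) lost that call too. Gal3st1 is also among the genes lower there (-0.60 ± 0.164, adjusted p = 0.0242, limma). That call was lost when only these 6 arrays were fitted (adjusted p = 0.0829, limma). It was also lost without cKO jejunum replicates 2 (0.111) or 3 (0.0594) and without wild-type jejunum replicates 1 (0.113) or 2 (0.0862). The medians of the 15 in these 3 comparisons were 0.07, -0.24 and -0.04, against -0.03, 0.00378 and 0.03 for all tested genes, and genes were called in both directions between the wild-type regions and in the jejunum labelled cKO.

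Among other carriers of sulfate and anions, Slc26a2, which exchanges sulfate, averaged 10.56 ± 0.43 in the jejunum labelled cKO and 9.40 ± 0.35 in the wild-type jejunum (1.17 ± 0.262, adjusted p = 0.00788, limma). Its wild-type jejunal level was below the ileal one (-0.96 ± 0.262, adjusted p = 0.0159, limma). The regional call was lost without wild-type jejunum replicates 1 (0.0605) or 3 (0.0641) and without wild-type ileum replicate 1 (0.0749), all adjusted p from limma. Slc26a3, the chloride and bicarbonate exchanger, and Slc26a6, which also carries oxalate, were higher in the wild-type jejunum than ileum by 0.80 ± 0.13 and 1.03 ± 0.205 (adjusted p = 0.000381 and 0.00192, limma). Slc35b3, which moves PAPS into the Golgi, differed by 0.26 ± 0.141 between the jejunum labelled cKO and the wild-type jejunum (adjusted p = 0.271, limma). Of 6 tested genes, 1 was higher and 1 lower in the jejunum labelled cKO (33.3%, against 12.8% of all tested genes), and 2 were higher and 1 lower in the wild-type jejunum against the ileum (50% against 21.3%). The 1 lower in the jejunum labelled cKO was Slc26a3 (-0.47 ± 0.13, adjusted p = 0.0267, limma). It was no longer called when only these 6 arrays were fitted (adjusted p = 0.119, limma) or with the replicate block (0.128). The call was also lost without cKO jejunum replicate 2 (0.118) and without wild-type jejunum replicates 1 (0.0568), 2 (0.0929) or 3 (0.0642). None was called by limma between cKI and control ileum, and none had an unadjusted p under 0.05 there.

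In sulfur amino acid metabolism Fmo1, a monooxygenase that oxidises hypotaurine, averaged 6.20 ± 0.69 in the jejunum labelled cKO and 7.56 ± 0.36 in the wild-type jejunum (-1.36 ± 0.314, adjusted p = 0.00951, limma). Gclc, the catalytic subunit of glutamate-cysteine ligase in glutathione synthesis, rose by 0.72 ± 0.158 in that comparison (adjusted p = 0.00665, limma). Its modifier subunit Gclm was higher in the wild-type jejunum than in the ileum by 0.86 ± 0.132 (adjusted p = 0.000227, limma). Gss, glutathione synthetase, was lower in the control than in the wild-type ileum (difference -0.74 ± 0.137, adjusted p = 0.00125, limma). Of 21 tested genes 1 was higher and 1 lower in the jejunum labelled cKO (9.52%, below the 12.8% of all tested genes), and 3 were higher and 3 lower in the wild-type jejunum against the ileum (28.6%, near the 21.3% of all tested genes). None was called by limma between cKI and control ileum, where 4 had an unadjusted p under 0.05.

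Of 10 tested sulfatase genes, Arsg, a lysosomal sulfatase, was the 1 that fell in the jejunum labelled cKO (-1.11 ± 0.195, adjusted p = 0.00141, limma). Sulf2, which removes sulfate from extracellular heparan sulfate, was higher in the wild-type jejunum than ileum by 1.51 ± 0.273 (adjusted p = 0.000883, limma), as was Arsg, and none was lower. These counts, 10% in the jejunum labelled cKO and 20% between the regions, lie below the 12.8% and 21.3% of all tested genes. None was called by limma between cKI and control ileum, where 3 had an unadjusted p under 0.05. Ids and Arsk, lysosomal sulfatases, were called higher in the control than in the wild-type ileum (0.50 ± 0.132 and 0.54 ± 0.18, adjusted p = 0.0122 and 0.0364, limma). The Ids call was lost without control ileum replicate 2 (adjusted p = 0.0603, limma) or wild-type ileum replicate 2 (0.0574). It was also lost when only these 6 arrays were fitted (0.0506), with the replicate block (0.11) and with array weights (0.0572). The Arsk call was lost without any 1 of the 3 control ileum arrays or wild-type ileum replicates 1 or 2 (adjusted p from 0.0505 to 0.167 in those 5 fits, limma). It was also lost after quantile normalization (0.0646), after median centring (0.0656) and without the filter (0.0505). The fit of only these 6 arrays (0.0653), the replicate block (0.114) and array weights (0.156) lost it as well.

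Over the 6 lists together, 70 genes of sulfur handling outside the 6 were tested. The lists were chosen with earlier results of these data known. The shares below, and those of each list above, are therefore a description and no support. In the jejunum labelled cKO 5 were higher and 12 lower than in the wild-type jejunum, or 24.3% called, against 12.8% of all tested genes. In the wild-type jejunum 19 were higher and 11 lower than in the ileum, or 42.9% called, against 21.3%. In the cKI ileum 1 was higher and 2 lower than in the control ileum, or 4.29% called, against 0.764%. With the replicate block, without cKI ileum replicates 1 or 2, or without control ileum replicates 2 or 3, the count in the cKI ileum was 1. It was also 1 when only the 6 arrays compared were fitted, and 9 with array weights. In the control ileum 12 were higher and 4 lower than in the wild-type ileum, or 22.9% called, below the 27.9% of all tested genes.

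Markers of other cells in the epithelial preparations moved with some of these comparisons, and their part in the results was not tested. Goblet cell markers (7 above 4.91 of 8 listed) spanned a sum of 14.655 to 14.731 in the cKI ileum, 14.945 to 15.062 in the control ileum, 14.402 to 14.589 in the jejunum labelled cKO, 13.973 to 14.167 in the wild-type jejunum, and 14.619 to 14.807 in the wild-type ileum. Of these 7, 5 were called higher in the jejunum labelled cKO (12.8% of all tested genes called) and 6 lower in the wild-type jejunum against the ileum (21.3%). In the cKI ileum 1 was lower (0.764%), and 4 had an unadjusted p under 0.05 there. In the control against the wild-type ileum 4 were higher and 1 lower (27.9%). Stromal markers (10 above 4.91 of 12) spanned 8.97 to 9.35 in the cKI ileum, 9.34 to 10.7 in the control ileum, 8.62 to 8.83 in the jejunum labelled cKO, 8.28 to 8.49 in the wild-type jejunum, and 9.02 to 9.48 in the wild-type ileum. Of these 10, 8 were lower in the wild-type jejunum against the ileum, 2 lower in the cKI ileum, 1 higher in the jejunum labelled cKO, and 3 higher and 1 lower in the control against the wild-type ileum. Between cKI and control ileum 7 of the 10 had an unadjusted p under 0.05. B and plasma cell markers (6 above 4.91 of 7) spanned 7.52 to 7.77 in the cKI ileum, 8.08 to 9.91 in the control ileum, 7.16 to 7.17 in the jejunum labelled cKO, 6.99 to 7.29 in the wild-type jejunum, and 7.92 to 8.43 in the wild-type ileum. Of these 6, 1 was called lower in the cKI ileum, where 4 had an unadjusted p under 0.05. In the wild-type jejunum against the ileum 2 were lower, where 6 had an unadjusted p under 0.05, and 1 was higher in the control against the wild-type ileum. None was called by limma in the jejunum labelled cKO, where 0 had an unadjusted p under 0.05.

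T and NK cell markers (6 above 4.91 of 8) spanned 7.89 to 9.28 in the cKI ileum, 9.44 to 10.1 in the control ileum, 9.11 to 9.93 in the jejunum labelled cKO, 9.10 to 9.86 in the wild-type jejunum, and 8.55 to 9.51 in the wild-type ileum. None was called by limma between cKI and control ileum, where 6 of 6 had an unadjusted p under 0.05, and none in the jejunum labelled cKO, where 0 had. Between the wild-type regions 1 was lower in the jejunum, and 1 was higher in the control than in the wild-type ileum. Myeloid markers (5 above 4.91 of 6) spanned 9.75 to 9.94 in the cKI ileum, 9.82 to 10.04 in the control ileum, 9.27 to 9.77 in the jejunum labelled cKO, 9.02 to 9.37 in the wild-type jejunum, and 9.75 to 10.01 in the wild-type ileum. Of these 5, 1 was higher in the jejunum labelled cKO, 2 were lower in the wild-type jejunum against the ileum, and 1 was higher and 1 lower in the control against the wild-type ileum. None was called by limma between cKI and control ileum, where 1 had an unadjusted p under 0.05.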

How the data were processed

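Affymetrix Mouse Gene 1.0 arrays were processed with Partek, per the submitters' processing notes, and the deposited log2 values, 1 per transcript cluster for 35556 clusters, were used as deposited by the authors. Partek's version, background correction, normalization and summarization are not given in the sources used here. The log2 scale was inferred from values between 0.893 and 13.9 with array medians of 4.82 to 5.00. The number of arrays limits the precision.

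Clusters with exactly 1 gene symbol (21789) entered. The 1621 with several symbols and the 12146 with none did not. For the 999 symbols with several clusters the one with the highest mean was kept; each of the 6 genes had 1 cluster. A gene was tested when its highest group mean exceeded 4.91. Limma 3.58.1 in R 4.3.3 fitted 1 mean per group to all 15 arrays (10 residual degrees of freedom), with eBayes, two-sided tests, Benjamini-Hochberg adjustment over all genes tested and a threshold of 0.05. The steps recovered large planted changes when tested on simulated data with independent noise and unpaired arrays. Recovery of small changes was not a condition of that check.

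Named are the 6 genes, up to 4 genes of each of 6 pathway lists with the smallest p over the 4 comparisons, and the 5 genes with the highest Pearson r to Suox and to Slc13a1 over 15 arrays. The lists held 106 symbols, 97 of them in the table. The genes and lists were chosen with earlier results of these data known. The replicate numbers of the labels were checked for pairing: deviations from group means of equal-numbered arrays correlated by 0.128 to 0.258 for cKI and control ileum and by 0.161 to 0.334 for the wild-type regions, and by -0.0732 to 0.185 and -0.265 to -0.00722 for the other 2 comparisons. By a limit of 0.1 they paired the arrays in the first 2 comparisons only. Alternatives were 2 normalizations, 2 filters, the mean over clusters, a fit of 6 arrays, the replicate block, array weights, and each array left out.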

Additional observations from a re-analysis of the deposited data

How the results depend on the processing

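Of the 168 values of the 6 genes in the cKO and control ileum comparisons under 14 alternatives each, 157 kept direction and side of the threshold, 11 passed it in addition, and no call was lost or reversed. For Suox and Slc13a1 these comparisons share arrays with those used to choose them, so this is no support. For Suox and Slc13a1 in the cKI and regional comparisons every alternative moved the difference by less than the spread between replicates (Suox -1.98 to -1.73 and -4.67 to -4.50, Slc13a1 -1.98 to -1.78 and -2.51 to -1.84). Of 644 values for 46 calls of named pathway genes, 87 lost the call and none reversed; the cause was not tested. The count of the 6 genes called between control and wild-type ileum was 4 with quantile normalization and with array weights, against 2.

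Counts of genes called depended more on the settings. Between cKI and control ileum 90 genes were called, against 52 without the filter, 19 in the fit of 6 arrays, 55 with the replicate block, 766 with array weights and 20 (without cKI replicate 1) to 176 (without control replicate 1) with 1 array left out; the pathway genes numbered 3, against 1 in the fit of 6 arrays, 1 with the replicate block, 9 with array weights and 1 to 3 with 1 array left out. Between wild-type regions array weights gave 3967 genes against 2507. Between the jejunum labelled cKO and the wild-type jejunum the fit of 6 arrays gave 979 against 1510, and leaving out 1 array gave 984 (without wild-type jejunum replicate 1) to 1532. Between control and wild-type ileum the replicate block gave 2061 against 3290. Pathway genes there numbered 16, against 10 with the block, 29 with array weights and 10 (without wild-type ileum replicate 1) to 14 with 1 array left out. The replicate block, where numbers paired the arrays, also ended the regional call of Ndst2 (adjusted p = 0.12, limma) and no other call of a named gene in those 2 comparisons beyond Mpst and Bpnt1 in the cKI ileum.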
